A study of Sus scrofa with 8 samples.

Results

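Iron handling genes were examined in endometrium of 8 pregnant pigs on day 12 of gestation, 4 Meishan and 4 Yorkshire gilts, with 1 one-colour Affymetrix porcine array per gilt. The genes were ACP5 (uteroferrin), TF (transferrin), TFRC, LTF, STEAP4, FTH1, FTL, CP, HAMP and HMOX1. Every probeset, a group of short probes against 1 porcine transcript sequence, was kept if the annotation of the array, or the list of breed differences that accompanied the study, gave it 1 of these 10 symbols. That gave 11 probesets for 9 genes, out of 23999 probesets tested, and no probeset named CP was used here. The study's list named 2 of the 11 (TF and STEAP4), and the annotation of the array named all 11, so none entered through its breed difference alone. A further 7 probesets carry a member symbol together with that of another gene and were set apart. All gilts were naturally mated, at an early estrus, to boars of their own breed, and endometrium was taken only where the conceptuses had elongated. The breed of the gilt and that of her conceptuses therefore cannot be told apart, and the samples were whole endometrium with its mixture of epithelium, stroma, vessels and blood cells.

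Iron reaches the pig conceptus across a placenta that does not invade the uterus, so secretions of the uterine glands carry much of it. Uteroferrin, an iron-containing acid phosphatase made by the glands under progesterone, is the best known of these carriers. Transferrin carries iron in plasma and is taken up through its receptor TFRC, ferric iron is reduced by STEAP metalloreductases, the ferritin chains FTH1 and FTL store iron in the cell, hepcidin (HAMP) blocks its export, and HMOX1 frees it from heme.

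Values below are the deposited signals after each array was centred on its median, so they are relative signals of 1 probeset and are not compared between probesets. A log2 difference is Meishan minus Yorkshire, given with its sign or as a size toward the breed with the greater mean, with its standard error (SE) and 95% interval from limma, and a probeset was called at a Benjamini-Hochberg adjusted p under 0.1 over all 23999. Signals under 64 are treated as near background. All 7 measured epithelial, all 7 stromal and both hormone receptor genes (PGR and ESR1) were at or above 64 in every gilt, so no measured marker of the labelled tissue was missing. Since 16653 to 17840 of the 23999 probesets on each array reached 64, as did all 4 smooth muscle and all 6 endothelial markers, this does not identify the tissue. Hybridization control probesets, which detect bacterial and phage sequences added to every sample, were brighter in all Meishan arrays (mean log2 signal 12.07 to 12.70) than in all Yorkshire arrays (11.05 to 11.55). The part of this in the breed differences below was not tested. By whole-array correlation Meishan gilt 1 was as close to Yorkshire gilt 4 (Pearson r = 0.916 across probesets) as to its nearest Meishan gilt (0.916). Several of the differences that rest on these gilts are therefore also given without both of them.

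None of the 11 probesets was called (limma, 0 of 11, where 0.908% of all probesets were called). An unadjusted p under 0.05 was reached by 2 of them, 18.2%, beside 14.8% of all probesets, 1 on the Meishan side (7.79% of all) and 1 on the Yorkshire side (6.96% of all). Over the whole array 0.404% of probesets were called with the greater mean in Meishan and 0.504% with it in Yorkshire. The breeds were fully apart for 1 of the 11, 9.09%, beside 10.1% of all. These shares lie near those of the array as a whole. Of the 11, 7 had the greater mean in Meishan, 63.6% beside 51.7% of all probesets, and 4 in Yorkshire, and the median log2 difference was 0.12 beside 0.02 over all probesets tested. In whole tissue, fewer cells of a type and less RNA per cell cannot be told apart.

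**Figure D1:**
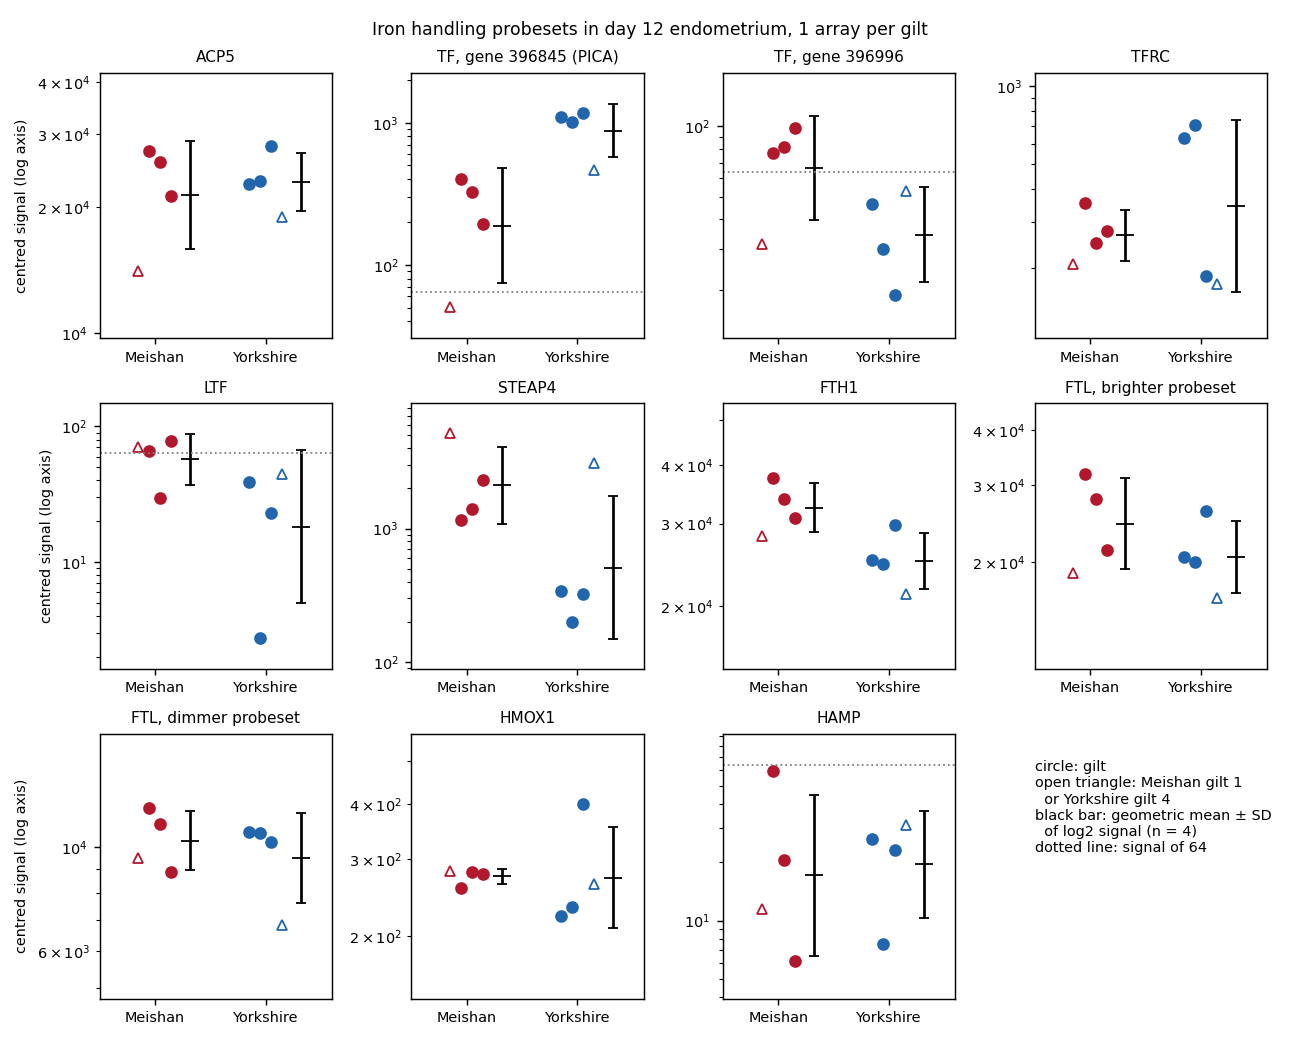
Centred signal (log axis) of the 11 iron handling probesets in each of the 4 Meishan and 4 Yorkshire gilts. Black bars are the geometric mean ± SD of log2 signals, open triangles mark Meishan gilt 1 and Yorkshire gilt 4, and the dotted line is a signal of 64. The breeds are fully apart only for the TF probeset of gene 396845, and for STEAP4 Yorkshire gilt 4 sits at 3101 among the Meishan gilts.

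The uteroferrin transcript ACP5 was bright in every gilt, with overlapping breeds. The array read 14087, 27365, 25727 and 21266 for Meishan gilts 1 to 4, and it read 22711, 23103, 28115 and 18988 for Yorkshire gilts 1 to 4. Meishan gilt 1 had the lowest value of all and Yorkshire gilt 3 the highest, so the Yorkshire gilts lay within a narrower span, and the whole range over 8 gilts was 2.00-fold. The geometric mean was 21430 in Meishan (SD of log2 signal 0.43, n = 4) and 23005 in Yorkshire (SD 0.23, n = 4). The log2 difference was 0.10 toward Yorkshire (SE 0.26, limma adjusted p = 0.885). Its 95% interval ran from 0.69 toward Yorkshire to 0.49 toward Meishan. The direction changed without Meishan gilt 1 (0.10 toward Meishan) and the difference widened to -0.56 after quantile normalization (SE 0.24, limma adjusted p = 0.354).

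The symbol TF covered 2 genes in the annotation. RefSeq lists NCBI genes 396845 and 396996 both as TF, on the same chromosome with 0 genes between them. It gives the synonym PICA to the first, a name used for the porcine inhibitor of carbonic anhydrase, a plasma protein of the transferrin family. Each had 1 probeset that carried the symbol TF alone, and a further 2 probesets were annotated to both gene 396845 and LOC100515857. Which gene a probeset reads was taken from the annotation and was not checked against probe sequences.

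The probeset of gene 396845 (PICA) gave 50.1, 399, 327 and 195 for Meishan gilts 1 to 4, while Yorkshire gilts 1 to 4 gave 1102, 1008, 1162 and 467. Every Yorkshire gilt exceeded every Meishan gilt, with Meishan gilt 1 below 64 and Yorkshire gilt 4 lowest of its breed. The geometric means of 189 in Meishan and 881 in Yorkshire differed 4.67-fold. The log2 difference of 2.22 toward Yorkshire (SE 0.65, n = 4 gilts per breed) had an unadjusted p of 0.00927 and was not called (limma adjusted p = 0.190). Its 95% interval ran from 0.72 to 3.73 toward Yorkshire. It was the largest of the 11 in size, at percentile 98.6 of the absolute log2 differences on the array. Without both Meishan gilt 1 and Yorkshire gilt 4 it was -1.89 (SE 0.31, limma adjusted p = 0.125), and without Meishan gilt 1 alone -1.58. With an intensity trend in the model it was called (limma adjusted p = 0.0975).

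The probeset of gene 396996, the TF entry without that synonym, was dim. Meishan gilts 1 to 4 read 31.5, 76.8, 81.4 and 98.3, whereas Yorkshire gilts 1 to 4 read 46.6, 29.9, 19.0 and 52.9. It reached 64 in 3 of 4 Meishan gilts and 0 of 4 Yorkshire gilts, and Meishan gilt 1 lay among the Yorkshire gilts. The log2 difference was 0.95 toward Meishan (SE 0.45, limma adjusted p = 0.378), and the interval ran from 0.09 toward Yorkshire to 1.99 toward Meishan. Leaving out both Meishan gilt 1 and Yorkshire gilt 4 gave 1.51 toward Meishan (SE 0.36, limma adjusted p = 0.194). Probesets of similar signal had a median log2 difference of 0.22 toward Meishan, which was near 0 after quantile normalization, where this probeset kept 0.74 (SE 0.41). No fold is given because the Yorkshire mean, 34.4, was below 64. The 2 probesets shared by gene 396845 and LOC100515857 did not lie on one side either, with log2 differences of -0.71 (SE 0.54, limma adjusted p = 0.589) and 1.38 (SE 0.41, limma adjusted p = 0.195). The direction therefore varied among probesets annotated to TF, also among those of gene 396845, and none was called.

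TFRC, the receptor that takes up iron-loaded transferrin, split the Yorkshire gilts. Its signal was 632 and 706 in Yorkshire gilts 1 and 2 but 186 and 172 in Yorkshire gilts 3 and 4. The Meishan gilts, at 206, 354, 248 and 278, lay between these pairs. The geometric mean was 266 in Meishan (SD of log2 signal 0.33) and 346 in Yorkshire (SD 1.10). The log2 difference was 0.38 toward Yorkshire (SE 0.51, limma adjusted p = 0.777), and it was -0.04 without Yorkshire gilt 2, -0.09 without Yorkshire gilt 1 and -0.71 without Yorkshire gilt 4. Leaving out both Meishan gilt 1 and Yorkshire gilt 4 gave -0.59 (SE 0.55, limma adjusted p = 0.651). The spread within Yorkshire exceeded the difference between the breeds.

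LTF, lactoferrin, an iron-binding protein of mucosal secretions and neutrophil granules, was near background. Signals in Meishan gilts 1 to 4 were 70.1, 65.6, 29.9 and 77.8, and those of Yorkshire gilts 1 to 4 were 39.1, 2.74, 23.2 and 44.5. It reached 64 in 3 of 4 Meishan gilts and 0 of 4 Yorkshire gilts, but Meishan gilt 3 lay among the Yorkshire gilts. The difference, 1.65 log2 units with the greater mean in Meishan (SE 0.86, limma adjusted p = 0.419), rested in part on the value of 2.74. It was 0.74 without Yorkshire gilt 2 and 0.67 with signals below 32 set to 32. Probesets of similar signal had a median log2 difference of 0.31 toward Meishan. That median was 0.04 after quantile normalization, where LTF kept 1.37 (SE 0.90). Of 4 measured neutrophil markers, 3 were at or above 64 in every gilt. Their summed signal overlapped, at 7417 to 27694 across Meishan gilts and 8950 to 24836 across Yorkshire gilts.

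STEAP4, a metalloreductase that reduces ferric iron and cupric copper, had the widest range of the 7 members at or above 64 in every gilt. Meishan gilts 1 to 4 stood at 5180, 1169, 1400.1 and 2304, and Yorkshire gilts 1 to 4 at 339, 199, 322 and 3101. Of the Yorkshire gilts, 3 were below every Meishan gilt and Yorkshire gilt 4 was above all Meishan gilts but gilt 1. The geometric means of 2102 in Meishan and 509.6 in Yorkshire differed 4.13-fold. The difference of 2.04 log2 units (SE 0.88, n = 4 gilts per breed), greater in Meishan, had an unadjusted p of 0.0482 and was not called (limma adjusted p = 0.336). Its 95% interval ran from 0.02 to 4.07. Without Yorkshire gilt 4 it was 2.91 (SE 0.53, limma adjusted p = 0.112), and without both Meishan gilt 1 and Yorkshire gilt 4 it was 2.48 (SE 0.36, limma adjusted p = 0.105). With any single gilt left out the STEAP4 difference was at least 1.59 on the log2 scale (without Yorkshire gilt 2), and it was called in none of the alternatives.

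The ferritin chains were bright in every gilt, with small differences between the breeds. FTH1, the heavy chain with the ferroxidase site, read 28291, 37624, 33849 and 30875 for Meishan gilts 1 to 4, against 25052, 24655, 29746 and 21187 for Yorkshire gilts 1 to 4. All Meishan gilts but gilt 1 exceeded all Yorkshire gilts. The log2 difference was 0.38 toward Meishan (SE 0.18, limma adjusted p = 0.388), a 1.30-fold greater mean, but -0.17 after quantile normalization. Ferritin has processed copies elsewhere in mammalian genomes, so the FTH1 signal may include them.

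FTL, the light chain, was measured by 2 probesets. The brighter read 18860, 31804, 27891 and 21352 for Meishan gilts 1 to 4, against 20565, 19949, 26192 and 16529 for Yorkshire gilts 1 to 4. The dimmer spanned 8839 to 12183 among Meishan gilts and 6822 to 10823 among Yorkshire gilts. The breeds overlapped at both. The log2 differences were 0.25 (SE 0.24) and 0.12 (SE 0.22) toward Meishan, with limma adjusted p-values of 0.670 and 0.838. After quantile normalization the brighter had a log2 difference of -0.17. Both 95% intervals excluded a log2 difference of 1 in either direction, at 0.80 and 0.63 on the Meishan side and 0.30 and 0.38 on the Yorkshire side.

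HMOX1, heme oxygenase, varied least of the 11 probesets among Meishan gilts. The values 281, 257, 279 and 277 belonged to Meishan gilts 1 to 4 (SD of log2 signal 0.06), and 223, 233, 400.0 and 263 to Yorkshire gilts 1 to 4 (SD 0.39). Yorkshire gilt 3 was highest, and the other Yorkshire gilts were below 3 of the 4 Meishan gilts. The geometric means were 273 and 272, which differed by 0.01 on the log2 scale (SE 0.22, limma adjusted p = 0.992), a value whose sign changed when single gilts were left out. HAMP, hepcidin, a peptide made mainly in liver, reached 64 in 0 of 8 gilts, with signals of 6.17 to 59.2 across Meishan gilts and 7.59 to 31.2 across Yorkshire gilts. No difference in HAMP was detectable at these signals (log2 difference 0.19 toward Yorkshire, SE 0.73, limma adjusted p = 0.930), and its sign changed with a floor of 32.

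**Figure D2:**
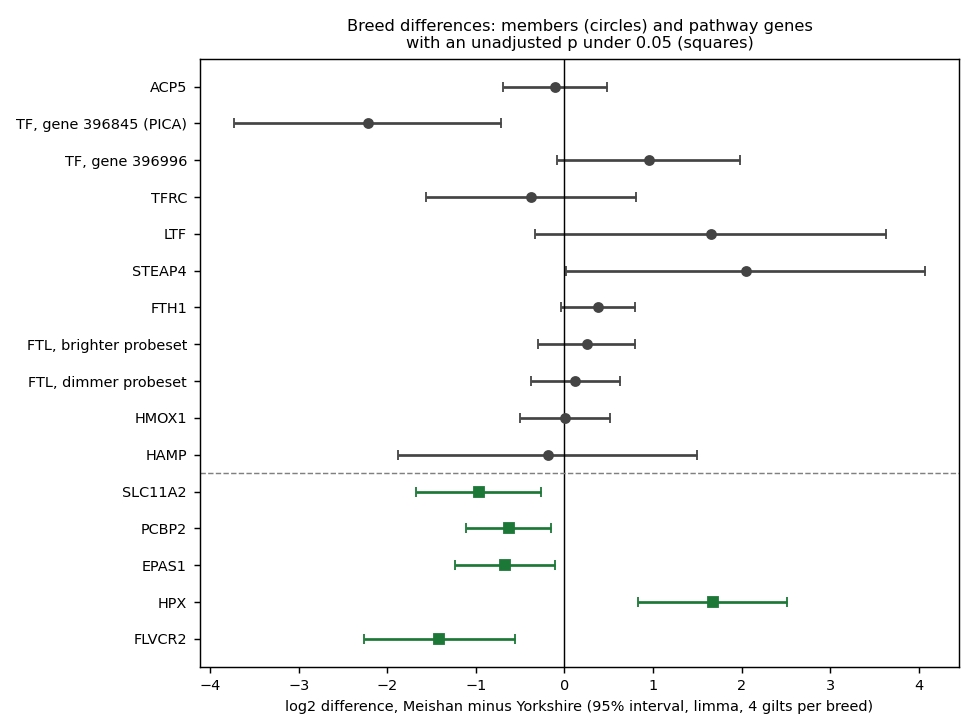
Log2 difference (Meishan minus Yorkshire, points) with 95% limma interval (bars) for the 11 iron handling probesets (circles) and for the pathway genes with an unadjusted p under 0.05 (squares), 4 gilts per breed. The interval excludes 0 for TF of gene 396845 and barely for STEAP4, whose lower end is 0.02, and no value shown was called after adjustment.

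Part of the variation among gilts had a common shape. Meishan gilt 1 and Yorkshire gilt 4 were both the lowest of their breed for ACP5, TF of gene 396845, TFRC, FTH1 and the brighter FTL probeset, and both the highest for STEAP4. Both were lowest at 5 of the 11 probesets, 45.5%, beside 10.7% of all probesets tested and 11.2% of the brightest decile by mean signal. Both were highest at 1 of the 11, 9.09%, beside 14.0% of all and 27.5% of the brightest decile. This pattern was chosen after the values were seen, the probesets share the same arrays, and it was not tested. For TF of gene 396845 the log2 deviations from the breed mean were -1.91 in Meishan gilt 1 and -0.92 in Yorkshire gilt 4. For STEAP4 they were 1.30 and 2.60. ACP5 deviated by -0.61 and -0.28, and the brighter FTL probeset by -0.37 and -0.31.

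Other measures moved with these gilts. The summed signal of the 4 neutrophil markers was 7417 in Meishan gilt 1 against 14815 to 27694 in the other Meishan gilts, and 8950 in Yorkshire gilt 4 against 20808 to 24836 in the other Yorkshire gilts. The lower sums came from S100A9, a calcium-binding protein also made by epithelium, which gave 6371 of the sum in Meishan gilt 1 and 7924 in Yorkshire gilt 4. The other neutrophil markers did not follow it in both gilts. S100A8 was lowest of its breed in neither gilt, S100A12 was highest of its breed in Yorkshire gilt 4 (499.8, against 255 to 311), and ELANE was below 64 in every gilt. The sums of the 7 epithelial and of the 4 smooth muscle markers were highest of each breed in the same gilts. They were 43908 and 19182 in Meishan gilt 1 and 42018 and 20060.2 in Yorkshire gilt 4. Not every marker followed. MUC1 and CLDN4 were highest of their breed in Meishan gilt 1 but not in Yorkshire gilt 4. The smooth muscle sum was mostly ACTA2 (15845 and 15060). DES was lowest of the Meishan gilts in gilt 1 (99.1), and in Yorkshire gilt 4 (143) it was below Yorkshire gilt 2 (161). The hormone receptor sum was also highest of each breed there, at 746 and 1277. In Meishan gilt 1 this held narrowly (738 in Meishan gilt 3), and ESR1 (308) was below Meishan gilts 3 (415) and 4 (392). The stromal sum, at 60532 and 50954, and the trophoblast sum, at 79.5 and 176, were lowest of each breed. VIM and DCN were lowest of their breed in both gilts, but other stromal markers were not. COL1A2 (3536) and PDGFRB (2970) were highest of the Meishan gilts in gilt 1. LUM (13952) was highest of the Yorkshire gilts in gilt 4. Of the trophoblast markers, IFNG and GATA3 were lowest of their breed in both gilts, and CYP17A1 in neither. The log2 ratio of the 3′ to the 5′ GAPDH control probeset, a measure of RNA integrity and labelling, was 1.77 in Meishan gilt 1 and 1.76 in Yorkshire gilt 4. It was 2.02 to 2.84 in the other 6 gilts. The same ratio for actin was lowest of its breed in Meishan gilt 1 (0.64) but not in Yorkshire gilt 4 (1.18, against 1.01 in Yorkshire gilt 1). The part of these measures in the gilt pattern was not tested.

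**Figure D3:**
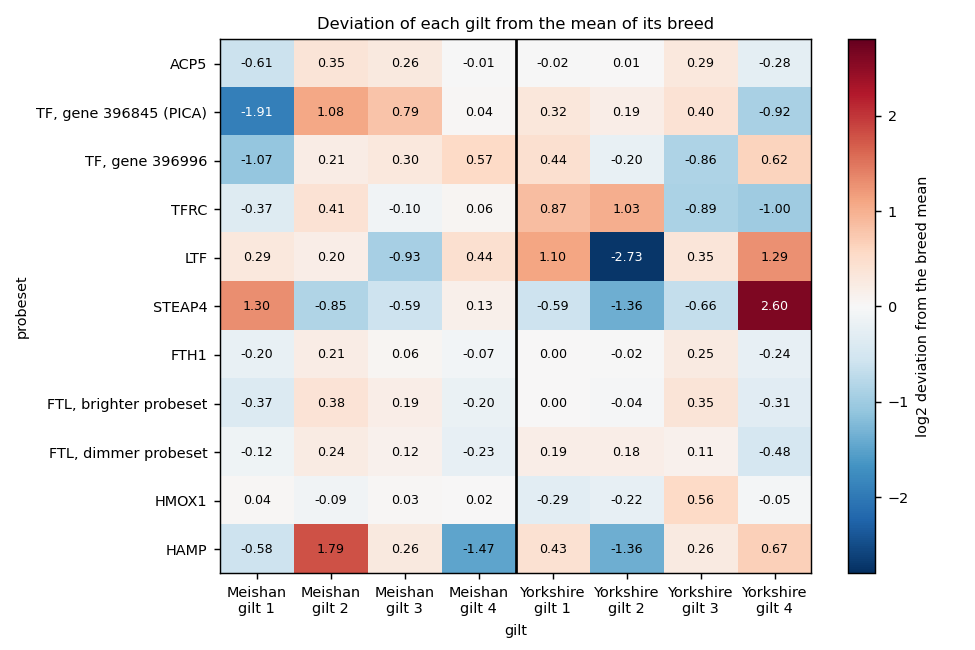
Deviation of each gilt from the mean of its breed (log2 units, colour and number) for the 11 iron handling probesets, Meishan on the left and Yorkshire on the right of the line. Meishan gilt 1 and Yorkshire gilt 4 share negative values for ACP5, TF of gene 396845, TFRC, FTH1 and FTL and positive values for STEAP4 (1.30 and 2.60).

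The genes most like ACP5 and TF in their variation among gilts were found by the Pearson correlation of deviations from the breed means over the 8 gilts, among 8010 probesets with 1 symbol and a mean log2 signal of at least 6. For ACP5 they were SCPEP1, a serine carboxypeptidase (r = 0.986, Spearman rho 0.976), CLDN3, a tight junction claudin (r = 0.981, rho 0.929), and SLC31A2, a copper transporter (r = 0.980, rho 0.929). Without the gilts farthest from the median, Meishan gilts 1 and 2, r was 0.955, 0.943 and 0.957. For TF of gene 396845 they were PDCD5 (r = 0.984, rho 0.929), SLC31A1, the main copper importer of cells (r = 0.977, rho 0.976), and FAM210B (r = 0.974, rho 0.881). Without Meishan gilt 1 and Yorkshire gilt 4, r was 0.887, 0.957 and 0.831. These are the highest of many correlations over few gilts and carry no test. Some rest on signals below 64 in the gilts that deviated most. PDCD5 read 16.6 in Meishan gilt 1 and 34.3 in Yorkshire gilt 4, and CLDN3 read 38.6 and 59.3. FAM210B read 30.0 in Meishan gilt 1. None of the 6 differed between the breeds as much as TF of gene 396845 did, with log2 differences from -0.76 for FAM210B to 0.03 for CLDN3.

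Beyond the members, 86 genes of iron transport, iron sensing, heme and iron-sulfur clusters were listed, and 46 had a probeset. None of the 46 was called (limma), beside 0.576% of all named genes at their brightest probeset. An unadjusted p under 0.05 was reached by 5 of the 46 (12.3% of all named genes), 1 toward Meishan and 4 toward Yorkshire, where 6.18% and 6.10% of all named genes did so. The breeds were fully apart for 4 of the 46, where 9.61% of all named genes were. Over the 46, 20 lay toward Meishan and 26 toward Yorkshire, with a median log2 difference of -0.04 beside -0.01 for all named genes.

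Among 7 measured iron transport genes, 2 toward Yorkshire reached an unadjusted p under 0.05. SLC11A2, the divalent metal transporter that moves ferrous iron into the cytosol, gave 733, 639, 444 and 561 for Meishan gilts 1 to 4 but 898, 1632, 1525 and 763 for Yorkshire gilts 1 to 4. Every Yorkshire gilt exceeded every Meishan gilt. The log2 difference was 0.97 toward Yorkshire (SE 0.31, limma adjusted p = 0.213), while the 3 other SLC11A2 probesets, all dimmer, gave -0.96, 0.03 and 0.59. PCBP2, an RNA-binding protein that also delivers iron to ferritin, spanned 6052 to 7873 across Meishan gilts and 7967 to 13346 across Yorkshire gilts. Its log2 difference was 0.63 toward Yorkshire (SE 0.21, limma adjusted p = 0.227), with -0.02 and 0.06 at its 2 other probesets.

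Of 9 genes of iron sensing and hepcidin control, EPAS1 alone had an unadjusted p under 0.05. EPAS1, the hypoxia-inducible factor HIF-2 alpha, spanned 2588 to 4792 across Meishan gilts and 4619 to 5948 across Yorkshire gilts (log2 difference 0.67 toward Yorkshire, SE 0.25, limma adjusted p = 0.268). Meishan gilt 1 overlapped the Yorkshire gilts. Leaving out both Meishan gilt 1 and Yorkshire gilt 4 gave an EPAS1 log2 difference of -0.79 (SE 0.23, limma adjusted p = 0.242). EPAS1 is also abundant in endothelium, and the summed signal of 6 endothelial markers was 5179 to 5323 in Meishan and 5685 to 7451 in Yorkshire. Not every marker shared this gap. CDH5 (log2 difference -0.58) and CLDN5 (-0.71) were fully apart, and VWF (-0.53) and TEK (-0.32) overlapped. PECAM1 lay slightly on the Meishan side (0.11), with overlapping gilts. KDR was nearly level (-0.09), and its median was higher in Meishan (106) than in Yorkshire (93.4). The part of endothelium in the EPAS1 difference was not tested.

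Of 16 heme genes, 2 reached an unadjusted p under 0.05, on opposite sides. FLVCR2, a membrane transporter of the heme exporter family, gave 183, 355, 115 and 268 for Meishan gilts 1 to 4 but 532, 757, 605 and 414 for Yorkshire gilts 1 to 4. The breeds did not overlap, with a 2.66-fold greater mean in Yorkshire. The log2 difference was 1.41 (SE 0.37, limma adjusted p = 0.159), and it was called among the brightest probesets (limma adjusted p = 0.0831) and with an intensity trend (0.0783). HPX, hemopexin, the plasma scavenger of heme, lay toward Meishan by 1.67 (SE 0.36, limma adjusted p = 0.117), but its signals, 16.2 to 56.3 in Meishan and 7.87 to 11.7 in Yorkshire, were all below 64. With signals below 32 set to 32 its log2 difference was 0.23. Probesets of similar signal had a median log2 difference of 0.31 toward Meishan. That median was 0.04 after quantile normalization, where HPX kept 1.39 (SE 0.33). HPX was called without Meishan gilt 1 (limma adjusted p = 0.0603) and with array weights (0.0649). Among the 14 iron-sulfur cluster genes, which build the cofactors of mitochondrial enzymes, none reached an unadjusted p under 0.05, and the mean was greater in Meishan for 5 and in Yorkshire for 9 (median log2 difference -0.06).

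Blood and plasma, which carry iron proteins into the tissue, were followed by their own markers. The summed signal of 4 measured erythroid genes was 946 to 1387 in Meishan and 951 to 1394 in Yorkshire. Of 7 liver plasma protein genes, APOA1 was the only one at or above 64 in every gilt, with a sum over the list of 5554 to 8326 across Meishan gilts and 8062 to 10792 across Yorkshire gilts. The sum was nearly all APOA1, with 7943 of 8326 in Meishan gilt 1, and the breed gap was not shared by the whole list, since SERPINA1 (log2 difference 1.55), ALB (0.61) and AHSG (0.12) lay toward Meishan. ALB was below 64 in every gilt. Trophoblast markers had 3 of 6 measured, none at or above 64 in every gilt, with sums of 79.5 to 1073 in Meishan and 176 to 6523 in Yorkshire. The highest sums were in Yorkshire gilts 1 and 3, largely from IFNG (4604 and 6286), a product of the conceptus. CYP17A1 was 13.4 and 65.0 in these gilts. GATA3, at 133 and 172 there, spanned 106 to 172 across Yorkshire gilts. Which cells gave the IFNG signal was not tested.

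**Figure D4:**
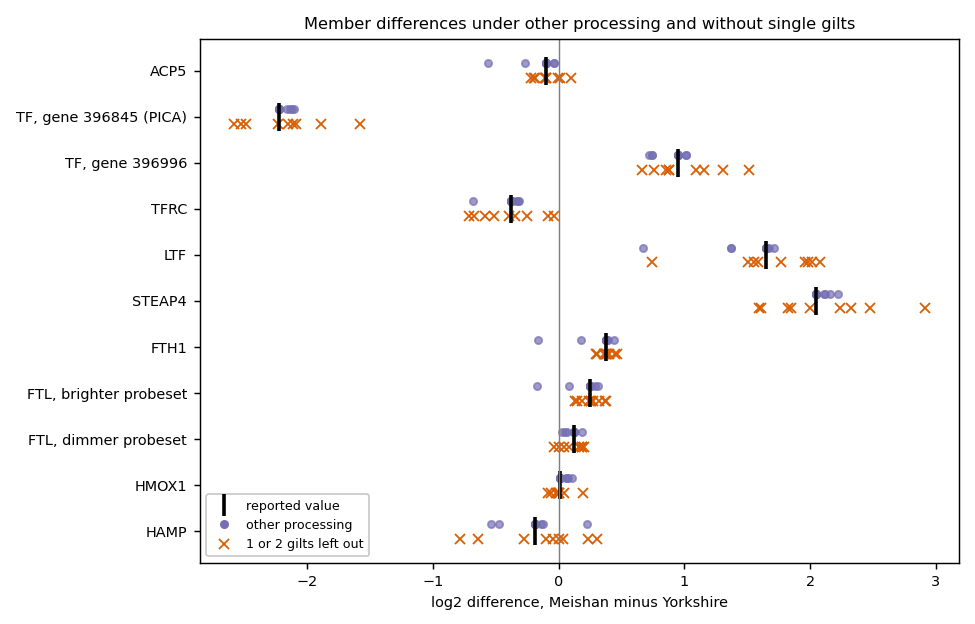
Log2 difference (Meishan minus Yorkshire) of the 11 iron handling probesets as reported (black bars), under other processing (circles) and with 1 or 2 gilts left out (crosses). TF of gene 396845 stays between -2.58 and -1.58 and STEAP4 between 1.59 and 2.91, while ACP5, FTH1, FTL, HMOX1 and HAMP reach both sides of 0.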

How the data were processed

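Total RNA of endometrium from 4 Meishan and 4 Yorkshire gilts (separate animals, groups from the sample titles) had been hybridized to 1 array each. The deposited intensities are linear probeset signals that the authors made from the scanner files with GCOS 1.2 (name and version also in the submitters' processing notes), scaled to a trimmed mean of about 500.1 on every array. Here they were put on the log2 scale, centred on each array's median over 23999 probesets (124 controls removed) and compared by moderated linear models (R 4.3.3, limma 3.58.1, prior degrees of freedom 2.09), adjusted over all probesets. The study's methods fitted a mixed model to the log signals, with terms for slide and animal, and took q-values, whose threshold of 0.1 was kept. The study's list of breed differences named TF and STEAP4, and neither was called by the main fit here. The model and the adjustment were not the same, so the calls are not like for like. On simulated data for this comparison, with 200 of 23999 probesets changed, the fit recovered 0% at a log2 change of 1, 56.5% at 2 and 86.5% at 4. A true difference of 1 can therefore go uncalled. The changed probesets were drawn at random over all signals and the others held no difference. The shares therefore need not hold for bright probesets or for these data. The number of arrays limits the precision.

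The members and gene lists were chosen with earlier results of these data known. Described in full are ACP5, TF and members with an unadjusted p under 0.05, and the remaining members by their values. Of each pathway list the genes named are those called or, up to 4, lowest in unadjusted p under 0.05. SCPEP1, CLDN3, SLC31A2, PDCD5, SLC31A1 and FAM210B were named by likeness. A pathway or marker gene was taken at its brightest probeset with 1 symbol. All 10 NCBI gene identifiers of the member probesets matched RefSeq with the same symbol. Alternatives were other scalings (none, quantile, cyclic loess), a floor of 32, the brightest probesets, an intensity trend, no moderation, array weights, Storey q-values, a threshold of 0.05, a replicate block, the mean of a gene's probesets and leaving out gilts. Chosen after seeing the data were leaving out Meishan gilt 1 with Yorkshire gilt 4, and Storey q-values in the unmoderated model. The study's own fold changes and p-values were not used. Probe sequences were not used here.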

Additional observations from a re-analysis of the deposited data

Results flagged for a closer look

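Within breeds, the log2 signals of 22 groups of 4 gilts were checked for a single gilt far from the other 3 by Dixon's ratio, the gap to the nearest gilt over the whole range. Chance alone marks about 5% of such groups. The check marked 3. For TF of gene 396845, Yorkshire gilt 4 (467, against 1008 to 1162 in the other Yorkshire gilts) had a ratio of 0.843. For the dimmer FTL probeset, Yorkshire gilt 4 again stood apart (6822, against 10292 to 10823) with a ratio of 0.891. For HMOX1, Meishan gilt 2 (257, against 277 to 281) had a ratio of 0.854, where the whole Meishan range was 1.09-fold.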

How the results depend on the processing

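No member probeset and no pathway gene was called under most settings. In limma, 1 member probeset (TF of gene 396845) was called with an intensity trend. Of the pathway genes, 1 was called among the brightest probesets and with an intensity trend (FLVCR2), and 1 with array weights and with Storey q-values (HPX). Without single gilts 0 to 1 pathway genes were called, HPX without Meishan gilt 1, and 0 member probesets. After quantile normalization FTH1 (-0.17) and the brighter FTL probeset (-0.17) turned toward Yorkshire, and HAMP (0.22) turned toward Meishan with a floor of 32. Without both Meishan gilt 1 and Yorkshire gilt 4, ACP5 (0.0071), HMOX1 (-0.020) and HAMP (0.23) changed sign. Without single gilts the log2 difference ranged from -0.22 to 0.10 for ACP5, from -0.087 to 0.19 for HMOX1, from -0.79 to 0.30 for HAMP and from -0.037 to 0.20 for the dimmer FTL probeset. The causes of these changes were not tested. Of 332 values of the 16 reported probesets under alternatives, 310 kept their direction and side of the threshold. LTF, HAMP, HPX and TF of gene 396996 were not among the brightest probesets. Over all probesets 218 were called, but 863 with a floor of 32, 642 among the brightest, 626 with an intensity trend, 497 with array weights, 632 with Storey q-values, 703 with these in the unmoderated model, 60 at an adjusted p under 0.05, 94 without both gilts, 72 to 205 without single gilts and 0 with the replicate block. With the replicate block 0 member probesets and 0 pathway genes were called. Over the whole array, deviations of gilts of the same number were nearly uncorrelated (correlations -0.0561, 0.089, 0.00105 and 0.0407). No pairing by number was evident, and a pairing that affects only some probesets was not tested. Signals near background limit LTF, HAMP, HPX and TF of gene 396996.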

Other observations

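The annotation joined 2 probesets to both TF (gene 396845) and LOC100515857 and 5 to both FTH1 and HDHD2, so none of the 7 can be given to 1 gene. Of the 2 joined to TF and LOC100515857, the brighter spanned 3750 to 23749 across Meishan gilts and 9639 to 19706 across Yorkshire gilts (log2 difference 0.71 toward Yorkshire, SE 0.54, limma adjusted p = 0.589), with Meishan gilt 1 lowest and Meishan gilt 2 highest. The dimmer lay on the other side, with 1170.1, 985, 697 and 296 in Meishan gilts 1 to 4 and 228 to 313 in Yorkshire (log2 difference 1.38 toward Meishan, SE 0.41, limma adjusted p = 0.195), and only Meishan gilt 4 overlapped the Yorkshire gilts. Of the 5 joined to FTH1 and HDHD2, 2 were at or above 64 in every gilt, with log2 differences of 0.02 (SE 0.19) and 0.34 (SE 0.24) toward Meishan.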
